A study of Mus musculus with 3 samples.

Results

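The cells described here are liver cells that carry Treml4 or Ace together with Csf1r. These are marker transcripts of nonclassical monocytes, the blood monocytes that crawl along vessel walls. The cells were chosen in single-cell data by 5 conditions on the unique molecular identifiers (UMIs, one per captured transcript) of each cell. A cell had to pass the cell filter of at least 500 UMIs, at least 250 genes and at most 25 percent mitochondrial UMIs. It then needed at least 2 UMIs of Treml4 and Ace together, at least 1 UMI of Csf1r, no UMI of the Kupffer cell genes Clec4f and Vsig4, and no UMI of the lymphocyte genes Cd79a and Cd3e. The rule found 311 of 20950 kept cells, and they are called Treml4/Ace-positive cells below. The name states the rule and not the cell type. A further marker, Cx3cr1, had a UMI in 16 of 227 such cells in dHep_IR, 0 of 14 in FL_IR and 44 of 70 in FL_control.

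The series holds 1 mouse liver library per group. In dHep_IR, Gsdmd was deleted in hepatocytes (title Gsdmd∆Hep, genotype tag gsdmd-ko) and the liver was taken after irradiation. FL_IR is irradiated liver with floxed Gsdmd (GsdmdFL/FL) and no deletion in its label, and FL_control is unirradiated GsdmdFL/FL liver. The genotype tag of the floxed libraries is WT, the design text gives 30 Gy with harvest after 7 days, and the Cre driver, the exposed body part, the age and the number of animals per library are not given in the sources used here. Single-library groups leave no spread between animals, so no test between groups was possible, no p-value is given, and every interval is an exact 95 percent interval that covers counting error only.

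Nonclassical monocytes arise from classical Ly6C-high monocytes in mice, a conversion that depends on the nuclear receptor NR4A1, and they survive with the help of the fractalkine receptor CX3CR1 and of CSF1R. They patrol the endothelium with the integrin LFA-1, take up debris and present few of the inflammatory features of classical cells. Treml4 is a receptor of the TREM family found on these monocytes and on some dendritic cells, and Ace, the angiotensin-converting enzyme, is made both by nonclassical monocytes and by endothelial cells. Gasdermin D forms the membrane pores of pyroptosis, and its deletion was aimed at hepatocytes, so its level in monocytes is no check of the deletion.

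The libraries held 8214, 7265 and 7393 barcodes in dHep_IR, FL_IR and FL_control, with 78694038, 59228905 and 52858425 UMIs, and 7552, 6780 and 6618 cells passed the filter. Kept cells had a median of 8320 UMIs in dHep_IR, 7520.5 in FL_IR and 5958.5 in FL_control, so a fixed UMI rule reaches further into the deeper libraries. B cells in a Cd79a gate numbered 11 in dHep_IR, 23 in FL_IR and 1431 in FL_control, and they enter the denominator of every share of kept cells. Neutrophil transcripts were also found in T cells of the irradiated libraries. T cells carried 12223 counts per 1000000 UMIs (CPM) of S100a8 in dHep_IR and 10035 CPM in FL_IR, against 199 CPM in FL_control. These are levels of summed cells, and in the irradiated libraries they were uneven from cell to cell. Libraries shared 32 barcodes between dHep_IR and FL_IR, 60 between dHep_IR and FL_control and 10 between FL_IR and FL_control. None was a Treml4/Ace-positive cell in both, and 5 such cells of dHep_IR had a barcode also listed for FL_control.

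Treml4/Ace-positive cells numbered 227 in dHep_IR, 14 in FL_IR and 70 in FL_control. They were scarce in the irradiated floxed liver and abundant in the irradiated liver with the hepatocyte deletion. They made up 3.01 percent of kept cells in dHep_IR (2.63 to 3.42), 0.206 percent in FL_IR (0.113 to 0.346) and 1.06 percent in FL_control (0.825 to 1.33). The share was 5.12-fold lower in FL_IR than in FL_control (2.86 to 9.85), 14.6-fold higher in dHep_IR than in FL_IR (8.50 to 27.1), and 2.84-fold higher in dHep_IR than in FL_control (2.16 to 3.77). Since the comparisons share libraries, they are not independent of each other.

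Classical monocytes gave a second denominator. They were gated by at least 2 UMIs of Ly6c2, at least 1 each of Ccr2 and Csf1r and none of Treml4 or Ace, and there were 373 in dHep_IR, 222 in FL_IR and 47 in FL_control. Of both kinds together, Treml4/Ace-positive cells were 37.8 percent in dHep_IR (33.9 to 41.8), 5.93 percent in FL_IR (3.28 to 9.75) and 59.8 percent in FL_control (50.4 to 68.8). The order of dHep_IR and FL_control thus turned with the denominator, being 1.58-fold lower in dHep_IR among monocytes (1.19 to 2.08), while FL_IR stayed lowest, 10.1-fold under FL_control (5.63 to 19.4).

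Depth moved the comparison of dHep_IR with FL_control and left FL_IR lowest. After every cell was thinned to 2000 UMIs and shallower cells were left out, 33 of 7096 cells met the rule in dHep_IR, 0 of 6338 in FL_IR and 25 of 6200 in FL_control. These were shares of 0.465 percent in dHep_IR and 0.403 percent in FL_control, whose intervals overlapped, and the count of 0 in FL_IR, at the limit of 3 counts used for zeros, allows a share of up to 0.0473 percent. With a UMI of both Treml4 and Ace required, a choice made after the data were seen, 102 cells remained in dHep_IR, 2 in FL_IR and 39 in FL_control, or 1.35, 0.0295 and 0.589 percent of kept cells. Without cells holding 5 or more UMIs of S100a8 and S100a9, 33 cells were left in dHep_IR, 1 in FL_IR and 65 in FL_control, and the share was then lower in dHep_IR (0.437 percent) than in FL_control (0.982 percent). That filter removes most cells of the irradiated libraries, because every Treml4/Ace-positive cell of dHep_IR had at least 1 UMI of the pair, and 194 of 227 had 5 or more, against 5 of 70 in FL_control.

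**Figure D1:**
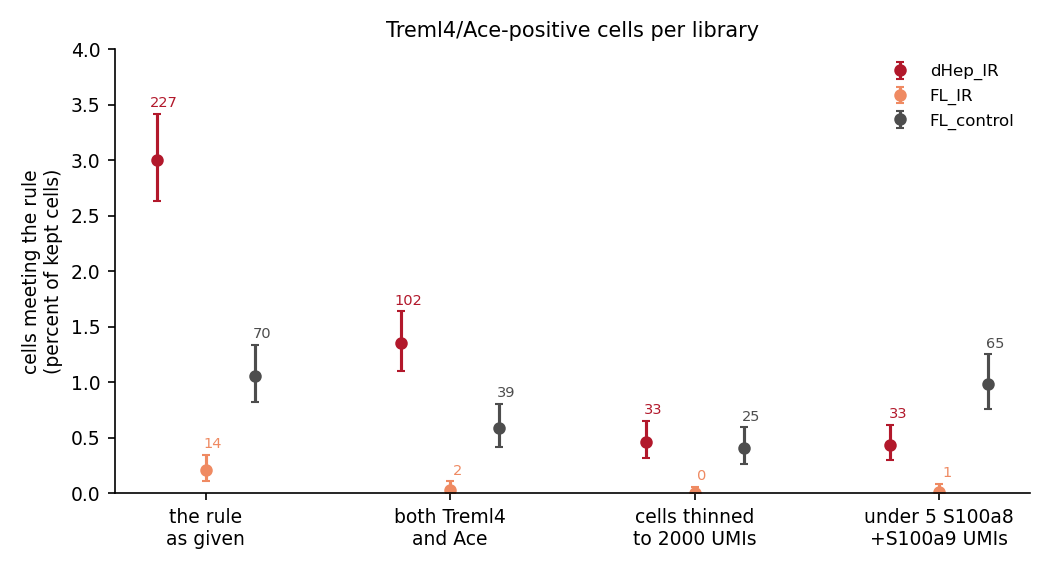
Treml4/Ace-positive cells as a percentage of kept cells (y axis) under 4 versions of the rule (x axis), in dHep_IR, FL_IR and FL_control. Points are shares, bars are exact 95 percent intervals covering counting error only, and the number of cells stands above each point. FL_IR is lowest in every version, while dHep_IR lies above FL_control under the rule as given and under it when cells with 5 or more S100a8 and S100a9 UMIs are left out.

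The rule genes behaved differently in the 3 libraries. Treml4 alone brought in 113 cells of dHep_IR, 12 of FL_IR and 16 of FL_control, Ace alone 12, 0 and 15 cells, and both genes 102, 2 and 39 cells. In FL_IR, 11 of the 14 cells had exactly 2 UMIs of Treml4 and none of Ace, so they sat at the threshold, whereas 61 of 227 cells in dHep_IR and 21 of 70 in FL_control had exactly 2 UMIs. Just outside, with 1 UMI of Treml4 or Ace and the other conditions met, were 168 cells in dHep_IR, 61 in FL_IR and 31 in FL_control. Classical genes had no single order across this border. In dHep_IR, F13a1 stood at 344 CPM in the cells with exactly 2 UMIs and 500 CPM in the outside cells, Ly6c2 at 126 and 346 CPM, and Chil3 at 8488 and 8490 CPM. F13a1 stood at 899 CPM just inside and 887 CPM just outside in FL_IR, and at 191 and 163 CPM in FL_control.

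Treml4 was rare in T and endothelial cells. A Treml4 UMI was found in 0 of 170 T cells and 0.618 percent of endothelial cells of dHep_IR, 0 of 88 T cells and 0.479 percent of endothelial cells of FL_IR, and 0.375 percent of T cells and 0.446 percent of endothelial cells of FL_control. Median depths were 13919, 10457 and 7912 UMIs in Treml4/Ace-positive cells and 6880, 6564.5 and 6342 UMIs in T cells, in dHep_IR, FL_IR and FL_control. Ace was less specific, with a UMI in 13 percent of endothelial cells in dHep_IR, 6.16 percent in FL_IR and 1.22 percent in FL_control, and 6 of the 12 Ace-only cells of dHep_IR and 6 of the 15 of FL_control held 2 or more UMIs over 6 endothelial genes. The rule fixes the presence of its own genes, whose levels only describe the chosen cells. Over all of them, Treml4 stood at 227 CPM in dHep_IR, 202 in FL_IR and 233 in FL_control, Ace at 107, 58.6 and 344 CPM, and Csf1r at 529, 417 and 550 CPM.

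Cx3cr1, a marker that took no part in the rule, set the libraries apart. It had a UMI in 16 of 227 cells in dHep_IR (7.05 percent, 4.08 to 11.2), in 0 of 14 in FL_IR, where the limit of 3 counts allows up to 21.4 percent, and in 44 of 70 in FL_control (62.9 percent, 50.5 to 74.1). Thinned to 2000 UMIs, the shares were 2.20 percent in dHep_IR and 31.4 percent in FL_control. The same held for classical monocytes, with 2.68 percent in dHep_IR, 2.70 percent in FL_IR and 70.2 percent in FL_control. T cells, taken as a level for background, had a Cx3cr1 UMI in 2.94 percent of cells in dHep_IR, 1.14 percent in FL_IR and 1.31 percent in FL_control. Most Treml4/Ace-positive cells of dHep_IR thus had no detected Cx3cr1, and no FL_IR cell had any.

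**Figure D2:**
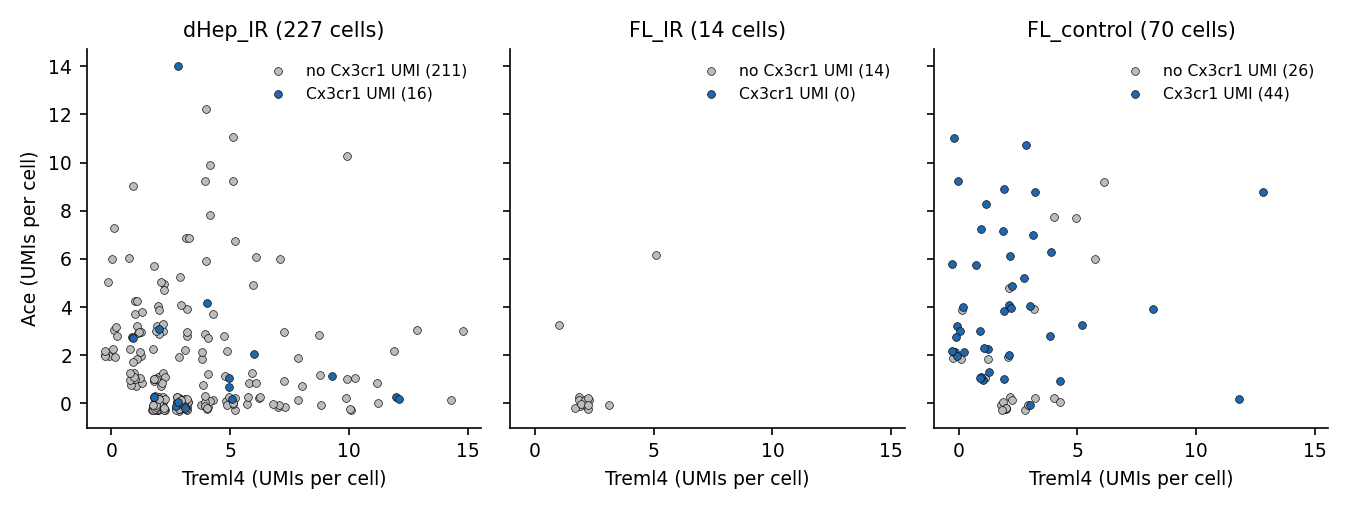
UMIs of Treml4 (x axis) and Ace (y axis) in each Treml4/Ace-positive cell of dHep_IR, FL_IR and FL_control, with a small random shift so that equal counts can be seen. Blue points have a Cx3cr1 UMI (16, 0 and 44 cells) and grey points none; the FL_IR cells gather at 2 Treml4 and 0 Ace.

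Other cell types were present among the cells the rule chose. At least 2 UMIs of Xcr1 and Clec9a, receptors of type 1 conventional dendritic cells, were held by 3 cells in dHep_IR, 0 in FL_IR and 10 in FL_control. Also, 2 or more UMIs over Stab2, Clec4g, Kdr, Ptprb, Cdh5 and Egfl7, all endothelial, were held by 33 cells in dHep_IR, 1 in FL_IR and 18 in FL_control. In FL_control, the 39 cells with both Treml4 and Ace had 319 CPM of Cx3cr1, 441 CPM of H2-Ab1 and no Xcr1, while the 16 cells with Treml4 and no Ace had 42.9 CPM of Cx3cr1, 10231 CPM of H2-Ab1 and 472 CPM of Xcr1. A second version of each comparison therefore left out doublets called by Scrublet together with cells carrying endothelial, Xcr1 and Clec9a or neutrophil granule transcripts. This version, chosen after the data were seen and called the cleaned set below, kept 187 cells in dHep_IR, 11 in FL_IR and 45 in FL_control.

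In dHep_IR and FL_control, many genes of the nonclassical programme were higher in Treml4/Ace-positive cells than in classical monocytes of the same library. FL_IR had too few cells for this comparison. Of 28 measured genes of a nonclassical list, 19 were over 2-fold higher and none over 2-fold lower in dHep_IR, where 7.99 percent of all 5984 genes were higher and 2.81 percent lower. The counts in FL_control were also 19 and none, where 8.99 percent of genes were higher and 3.93 percent lower. The median log2 ratio of the list was 1.69 in dHep_IR and 2.27 in FL_control, against 0.07 and 0.04 over all genes. The cells were chosen by transcripts of the same cells, so these values describe them and test nothing.

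Several surface genes were among those higher. Spn, which encodes the sialophorin CD43 used to sort nonclassical monocytes, was 9.63-fold higher than in classical cells in dHep_IR and 5.98-fold in FL_control. Itgal, the alpha chain of LFA-1, was 5.80-fold and 4.56-fold higher, and the adhesion receptor gene Adgre4 25.9-fold and 8.03-fold. By the rule of the highest ratio in the library where it is lowest, the leading genes were Slc12a2, Cd300e, Nr1h3, Ear2, Fcna, C1qa, Adgre4 and Abcg3. The activating receptor gene Cd300e, for one, stood at 10.9 CPM against 0.462 CPM in classical cells of dHep_IR, and at 118 CPM against 3.58 CPM in FL_control. Those classical levels rest on 3 of 373 and 1 of 47 cells. Kupffer cells held several of these genes too. In dHep_IR, Cd300e had a UMI in 8.81 percent of Treml4/Ace-positive and 49.6 percent of Kupffer cells. The shares were 41.9 and 98.5 percent for C1qa, 63.0 and 74.4 for Ear2, and 65.2 and 49.6 for Adgre4. In FL_control they were 42.9 and 29.2 percent for Cd300e and 18.6 and 94.9 for C1qa.

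Of 18 classical genes, 7 were over 2-fold lower than in classical monocytes in dHep_IR and 13 in FL_control, and none was higher. The median log2 ratio of that list was -0.47 in dHep_IR and -1.24 in FL_control. Ly6c2, the gene of the Ly6C antigen and part of the classical gate, stood at 151 CPM against 914 CPM in classical cells in dHep_IR, and at 477 CPM against 2092 CPM in FL_control. F13a1, the A chain of coagulation factor XIII, stood at 198 CPM against 1078 CPM in dHep_IR, and at 103 CPM against 549 CPM in FL_control. Chil3, the chitinase-like Ym1 of inflammatory monocytes, had a ratio of 0.512 in dHep_IR and 0.509 in FL_control.

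**Figure D3:**
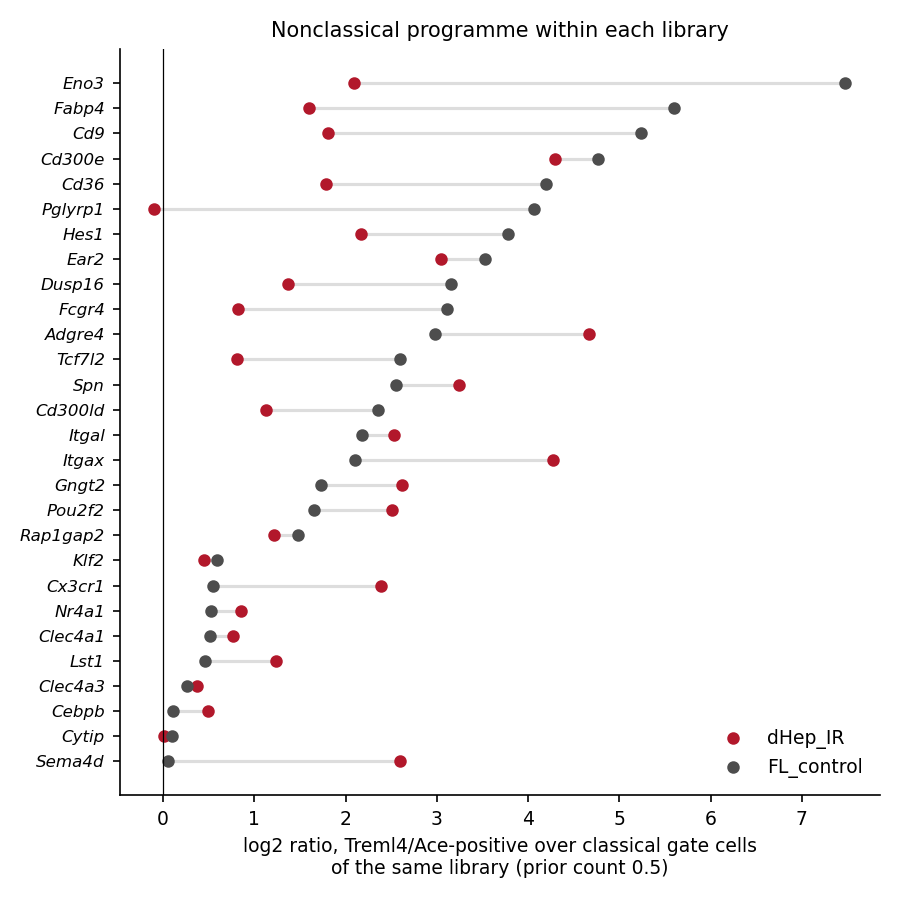
Log2 ratio of 28 genes of the nonclassical list (y axis) in Treml4/Ace-positive cells over classical monocytes of the same library (x axis), for dHep_IR (red) and FL_control (grey). Nearly all points lie at or right of 0, with medians of 1.69 in dHep_IR and 2.27 in FL_control; 1 library per group gives no error bar between animals.

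Against Kupffer cells, gated by at least 2 UMIs of Clec4f and Vsig4, the leading genes were Spn, Skint3, Havcr2, Sh2d1b1, Ly6i, Arhgef37, Sirpb1a and Itgax. Spn stood at 52.0 CPM in Treml4/Ace-positive cells of dHep_IR and had no UMI in the 133 Kupffer cells there, and it stood at 235 CPM in Treml4/Ace-positive cells of FL_control, against 5.96 CPM in its Kupffer cells. Havcr2, the gene of the receptor TIM-3, was 32.3-fold higher than in Kupffer cells in dHep_IR and 48.0-fold higher in FL_control. Macrophage differentiation genes were lower than in Kupffer cells, 11 of 14 past 2-fold in dHep_IR and 14 of 14 in FL_control, where 15.1 and 16.9 percent of 7904 genes were lower.

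Setting the 227 cells of dHep_IR against the 70 of FL_control, many genes of the nonclassical programme were lower and many cytokine genes were higher. Of 8731 genes with at least 20 UMIs over both libraries, 913 were over 2-fold higher in dHep_IR (10.5 percent) and 1044 over 2-fold lower (12 percent), with a median log2 ratio of -0.06. With TMM scaling in place of library totals, the median of all genes moved to 0.13, and 1185 genes were higher and 755 lower. In the cleaned set, 951 of 7524 genes were higher (12.6 percent) and 992 lower (13.2 percent). FL_IR had only 14 cells, under the 20 set as the minimum for a ratio, so its levels are given beside the others and no fold is drawn. Fewer cells of one kind and less RNA per cell cannot be told apart in such sums where the cells are mixed.

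None of 28 nonclassical genes was over 2-fold higher in dHep_IR and 15 were over 2-fold lower, with a median log2 ratio of -1.13. In the cleaned set 21 of 28 were lower, with a median of -1.31, and classical monocytes had a median of -0.69 for the same list. Cx3cr1 stood at 15.8 CPM in dHep_IR, 0 in FL_IR and 220 CPM in FL_control, 13.9-fold lower in dHep_IR than in FL_control, and its level in T cells of dHep_IR was 7.81 CPM. Cd300e stood at 10.9, 52.1 and 118 CPM in dHep_IR, FL_IR and FL_control, the FL_IR value resting on 1 cell. Lowest by ratio was Eno3, the muscle enolase gene that marks nonclassical monocytes in mouse data, at 6.89 CPM in dHep_IR, 13 in FL_IR and 142 in FL_control, or 20.5-fold lower (13 to 33.6). Spn stood at 52.0 CPM in dHep_IR, 52.1 in FL_IR and 235 in FL_control, and its level in T cells, which make it, was 67.7 CPM in dHep_IR.

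Genes of patrolling and egress were among those lower. S1pr5, a sphingosine-1-phosphate receptor that nonclassical monocytes use to leave the bone marrow, stood at 3.45 CPM in dHep_IR, 0 in FL_IR and 69.3 CPM in FL_control (20.1-fold lower in dHep_IR, 10.5 to 41.6). Of 17 genes of patrolling adhesion and migration, 7 were over 2-fold lower and 4 higher, beside 12 and 10.5 percent of all genes. The list had a median log2 ratio of -0.35, and classical monocytes had -0.34. S1pr5 was lower in classical monocytes as well, with a log2 ratio of -4.71 against -4.24 in Treml4/Ace-positive cells. Nr4a1 stayed detected in nearly all Treml4/Ace-positive cells, in 96.5 percent in dHep_IR, 100 percent in FL_IR and 98.6 percent in FL_control, at 1006, 1290 and 1778 CPM. It was 1.77-fold lower in dHep_IR than in FL_control, less than the 2-fold used as the call. Detection of Nr4a1 was not particular to these cells. Classical monocytes had a UMI in 94.6, 98.2 and 95.7 percent of cells in dHep_IR, FL_IR and FL_control, and T cells in 70.6, 71.6 and 70.2 percent.

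**Figure D4:**
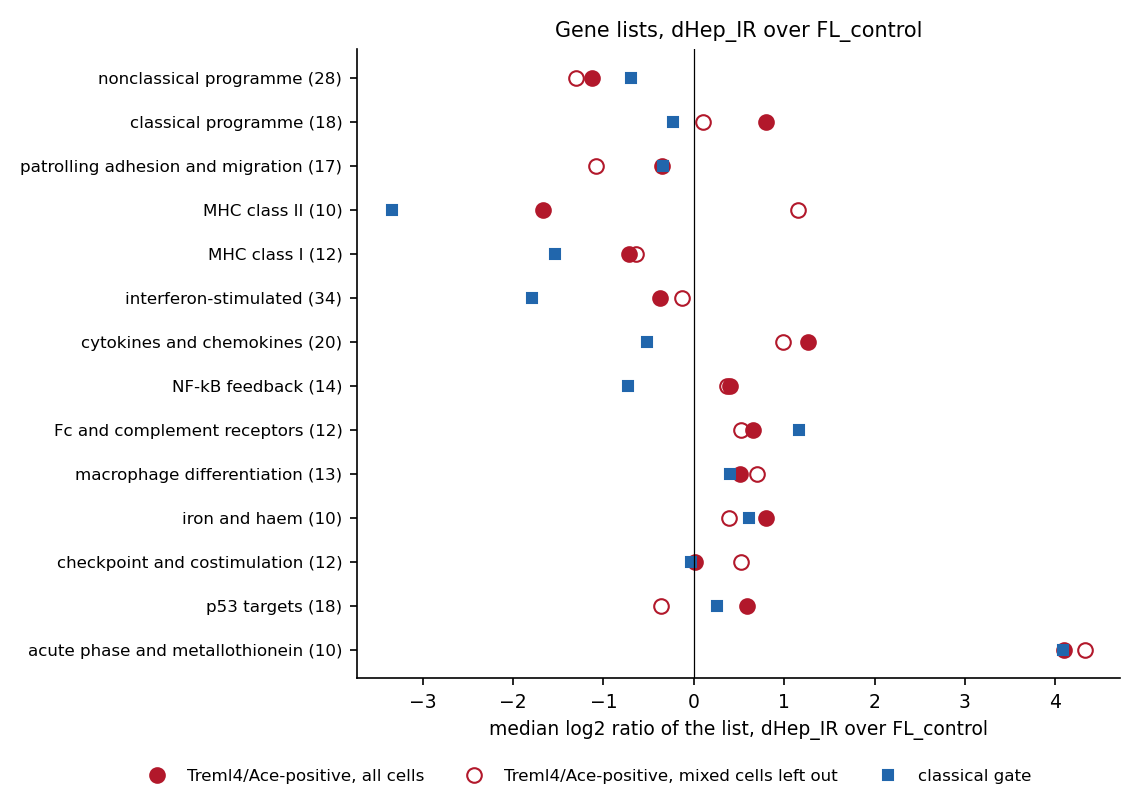
Median log2 ratio of 14 gene lists (y axis, number of measured genes in parentheses), dHep_IR over FL_control (x axis), for all Treml4/Ace-positive cells (filled red), the cleaned set (open red) and classical monocytes (blue squares). The nonclassical list lies left of 0 in all 3, the cytokine list lies right of 0 in both sets of Treml4/Ace-positive cells and left of it in classical monocytes, and the MHC class II list lies on either side of 0 depending on which cells are kept.

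Acute-phase genes had the largest folds in dHep_IR, but most of them were not over 2 times their level in other cells. Of 10 acute-phase and metallothionein genes, 9 were over 2-fold higher in dHep_IR, with a median log2 ratio of 4.09, and classical monocytes had a median of 4.08. Only 2 of these 9, Saa3 and Hp, were over 2 times their level in both T cells and endothelial cells of dHep_IR. Lcn2, the siderophore-binding lipocalin, stood at 1270 CPM in Treml4/Ace-positive cells of dHep_IR and at 1260 CPM in its T cells, and Mt2 at 347 CPM and at 458 CPM. S100a8 stood at 6892 CPM in these cells against 12223 CPM in T cells. Both S100a8 levels are sums over cells and were uneven. In Treml4/Ace-positive cells of dHep_IR, the top 5 cells held 73.1 percent of the S100a8 and S100a9 UMIs, and the median cell had 8. Thinned to 2000 UMIs, 47.6 percent of T cells of dHep_IR had an S100a8 UMI, so the T cell level is not that of a typical T cell. For Lcn2, Mt1, Mt2, Saa1, Saa2, Orm1, Hpx and S100a8, these levels therefore cannot tell whether Treml4/Ace-positive cells made the transcripts. The source of their RNA was not tested.

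Saa3, the serum amyloid A made by macrophages and other cells outside the hepatocyte, was far above its level in those cells. It stood at 6352 CPM in dHep_IR, 1160 in FL_IR and 10.1 in FL_control (628-fold higher in dHep_IR than in FL_control, 305 to 1563), against 108 CPM in T cells and 119 CPM in endothelial cells of dHep_IR. It was uneven, with a UMI in 151 of 227 cells, a median of 2 UMIs and a highest of 1730 UMIs. Classical monocytes of dHep_IR had still more, at 8434 CPM, and the Treml4/Ace-positive cells with Treml4 and no Ace (10102 CPM) had more than those with both genes (2448 CPM). Other genes well above their level in T cells were Sdc4, a heparan sulphate proteoglycan, at 473, 97.7 and 11.6 CPM in dHep_IR, FL_IR and FL_control (T cells of dHep_IR 6.51 CPM), and Ecm1, at 379, 417 and 14.4 CPM (T cells 28.6 CPM).

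Many cytokine genes were higher in Treml4/Ace-positive cells of dHep_IR. Of 20 measured cytokine and chemokine genes, 12 were over 2-fold higher in dHep_IR than in FL_control and none lower. Of all genes, 10.5 percent were higher and 12 percent lower. The list had a median log2 ratio of 1.27, against -0.52 in classical monocytes, a difference between the 2 kinds of cells that was not tested. In the cleaned set 10 were higher, beside 12.6 percent of all genes, with a median of 0.99. Of the 12, 9 were over 2 times their level in T and endothelial cells: Il1b, Tnf, Il6, Il1rn, Ccl2, Ccl4, Ccl6, Ccl7 and Cxcl2. Kupffer cells also had a positive median log2 ratio of dHep_IR over FL_control for this list, 0.62. Within dHep_IR, the list had a median log2 ratio of -0.38 in Treml4/Ace-positive over Kupffer cells, beside -0.11 over all genes. Of its 20 genes, 10 were over 2-fold lower than in Kupffer cells, where 15.1 percent of all genes were lower. Another 6 were over 2-fold higher, for which no share of all genes is given here. Il6, the interleukin that drives the hepatic acute-phase response, stood at 111 CPM in dHep_IR, 97.7 in FL_IR and 10.1 in FL_control, 11.0-fold higher in dHep_IR than in FL_control (5.28 to 27.5), with 1.30 CPM in T cells of dHep_IR. Its level in classical monocytes of dHep_IR was 17.6 CPM. The neutrophil attractant Cxcl2 stood at 2193 CPM in dHep_IR, 3023 in FL_IR and 552 in FL_control, and Ccl4, a chemokine of macrophages, at 1157, 339 and 322 CPM. Tnf stood at 156 CPM in dHep_IR, 39.1 in FL_IR and 43.3 in FL_control.

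Saa3 and Il6 are textbook targets of C/EBP factors, and their upstream sequence is shown for that reason. The letters TTNNGCAA, as in C/EBP sites, were searched on both strands in the 250 bases before each RefSeq start (GRCm38.p6), and they occur in 9.56 percent of 32851 such windows. Capitals mark the matches, of which each window below has 1. The Saa3 stretch is chr7:46715701-46715926, minus strand, cut short of the annotated transcript, and the Il6 stretch is chr5:30012864-30013113, plus strand; both are from RefSeq. A match is a description of the letters and no measure of binding.
Saa3: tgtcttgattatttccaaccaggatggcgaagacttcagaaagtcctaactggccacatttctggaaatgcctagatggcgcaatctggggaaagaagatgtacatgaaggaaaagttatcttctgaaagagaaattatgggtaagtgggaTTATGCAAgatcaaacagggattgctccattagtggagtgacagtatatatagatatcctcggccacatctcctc
Il6: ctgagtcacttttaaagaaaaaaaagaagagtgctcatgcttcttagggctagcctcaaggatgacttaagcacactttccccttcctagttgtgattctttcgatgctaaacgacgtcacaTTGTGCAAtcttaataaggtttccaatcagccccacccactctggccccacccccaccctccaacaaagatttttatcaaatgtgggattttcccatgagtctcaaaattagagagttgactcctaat

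Interferon-stimulated genes were divided in direction. Of 34 such genes, 6 were over 2-fold higher in dHep_IR than in FL_control and 6 over 2-fold lower, beside 10.5 and 12 percent of all genes. Their median log2 ratio was -0.38, against -1.79 in classical monocytes. In the cleaned set 10 were higher and 6 lower, beside 12.6 and 13.2 percent of all genes, with a median of -0.13. After thinning, on 33 and 25 cells, the median was 1.22, so its direction hung on the version of the rule. Within dHep_IR, 22 of 32 were over 2-fold higher in Treml4/Ace-positive than in classical cells and none lower, where 7.99 percent of all genes were higher. Within FL_control, 1 of 32 was higher and 6 lower, where 8.99 percent of all genes were higher and 3.93 percent lower. Gbp5, a guanylate-binding protein, stood at 64.6 CPM in dHep_IR, 6.52 in FL_IR and 20.2 in FL_control (3.20-fold higher in dHep_IR, 1.87 to 5.94), against 20.8 CPM in T cells of dHep_IR. Cxcl10, an attractant of T cells, stood at 558 CPM in dHep_IR, 0 in FL_IR and 298 CPM in FL_control, with a UMI in 42.7, 0 and 18.6 percent of cells. Of the Cxcl10 UMIs in FL_control, 64.6 percent came from 1 cell, and in the cleaned set the log2 ratio was 3.06.

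The promoter of Cxcl10 is shown since its interferon response element is known, and that of H2-Aa for the class II genes described next. The core of that element (GAAA, any 2 bases, GAAA) was searched for the first and CCAAT for the second, on both strands of the same 250 base windows. The first occurs in 2.98 percent of all windows and in 16 of 30 interferon-stimulated genes matched by symbol, the second in 33.8 percent of all windows and in 6 of 7 class II genes matched. Capitals mark the single match in each. Cxcl10 is chr5:92348890-92349139, minus strand, and H2-Aa chr17:34287824-34288073, minus strand, both from RefSeq on GRCm38.p6.
Cxcl10: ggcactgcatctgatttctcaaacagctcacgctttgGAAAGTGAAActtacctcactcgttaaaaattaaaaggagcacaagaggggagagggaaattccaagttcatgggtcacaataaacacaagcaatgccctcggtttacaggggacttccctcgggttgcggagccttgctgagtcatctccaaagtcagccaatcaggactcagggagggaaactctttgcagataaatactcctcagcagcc
H2-Aa: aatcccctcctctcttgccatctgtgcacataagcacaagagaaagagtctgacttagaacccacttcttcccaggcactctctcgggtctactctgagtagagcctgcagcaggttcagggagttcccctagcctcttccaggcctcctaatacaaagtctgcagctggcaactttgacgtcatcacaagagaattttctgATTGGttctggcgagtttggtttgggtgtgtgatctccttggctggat

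MHC class II genes depended on which cells were kept. Over all Treml4/Ace-positive cells, 9 of 10 were over 2-fold lower in dHep_IR than in FL_control and none higher, with a median log2 ratio of -1.67. In the cleaned set, 5 of 7 were over 2-fold higher and none lower, with a median of 1.16, and leaving out only cells with Xcr1 and Clec9a gave 1.24. H2-Ab1, a class II beta chain, stood at 1210 CPM in dHep_IR, 19.6 in FL_IR and 4055 in FL_control, with a log2 ratio of -1.74 over all cells and 1.36 in the cleaned set. Within dHep_IR, all 8 class II genes measured were over 2-fold higher than in classical monocytes, H2-Ab1 13.9-fold. The genes lowest in dHep_IR over all cells were Cadm1, H2-Ob, H2-Oa, Tlr3, Rtl8a, Eno3, Ckb and Tnni2, and Eno3 was the only nonclassical gene among them. That order includes the 10 FL_control cells with 2 or more Xcr1 and Clec9a UMIs. The 16 FL_control cells with Treml4 and no Ace, rich in Xcr1, held 256576 of the 692428 UMIs summed there. Lower levels in monocytes and fewer dendritic cells cannot be told apart in this order.

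Some genes of complement and macrophages were higher in dHep_IR. Of 13 macrophage differentiation genes, 5 were over 2-fold higher and none lower, and of 12 Fc and complement receptor genes 4 were higher and 1 lower, against the 10.5 and 12 percent of all genes given above. C1qa stood at 741 CPM in dHep_IR, 274 in FL_IR and 182 in FL_control, and C1qb at 1315, 358 and 279 CPM (4.72-fold higher in dHep_IR, 4.08 to 5.48). The cell with the most C1q UMIs held 6.86 percent of them in dHep_IR, 92.0 percent in FL_IR and 50.7 percent in FL_control, and 102 of 227 cells of dHep_IR had 5 or more. Of 10 iron and haem genes, 4 were over 2-fold higher in dHep_IR and none lower, and in the cleaned set 3 were higher and 1 lower. Hmox1, the haem oxygenase, stood at 384 CPM in dHep_IR, 847 in FL_IR and 70.8 in FL_control, and Fth1, the ferritin heavy chain, was 3.23-fold higher in dHep_IR than in FL_control. The cells of FL_IR had the highest Hmox1 of the 3 libraries. Classical monocytes had median log2 ratios of 0.40 for macrophage differentiation and 1.16 for Fc and complement receptors, against 0.51 and 0.66 in Treml4/Ace-positive cells. In classical monocytes C1qa had a log2 ratio of 4.09 and C1qb of 3.11, against 2.02 and 2.24. Only 3 of 47 classical monocytes of FL_control had a C1qa UMI.

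Among genes of classical monocytes, Chil3 and Vcan were higher in dHep_IR than in FL_control and highest in FL_IR, while Ly6c2 was lower in dHep_IR. A Ly6c2 UMI was found in 28.2 percent of Treml4/Ace-positive cells in dHep_IR, 57.1 percent in FL_IR and 37.1 percent in FL_control. Chil3 stood at 5756 CPM in dHep_IR, 19390 in FL_IR and 994 in FL_control, and in T cells of dHep_IR at 491 CPM. Classical monocytes had 11250 CPM of Chil3 in dHep_IR. Per cell, the 14 cells of FL_IR had 1 to 427 UMIs of Chil3 with a median of 237. Vcan, the proteoglycan versican, stood at 283 CPM in dHep_IR, 534 in FL_IR and 26.0 in FL_control. Fcgr3, an activating Fc receptor gene counted in the list of Fc and complement receptors, stood at 402, 560 and 126 CPM. Of 18 classical genes, 7 were over 2-fold higher in dHep_IR than in FL_control and 3 lower, beside 10.5 and 12 percent of all genes. In the cleaned set 6 were higher and 4 lower, beside 12.6 and 13.2 percent of all genes. The median log2 ratio was 0.79 over all cells and 0.11 in the cleaned set.

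Other groups were mixed, beside 10.5 percent of all genes higher and 12 percent lower. Of 8 colony-stimulating factor receptor genes, 2 were over 2-fold higher in dHep_IR than in FL_control and 2 lower. Of 12 checkpoint and costimulation genes, 4 were higher and 1 lower. All the higher genes of both lists were over 2 times their level in T and endothelial cells of dHep_IR. Among receptors for colony-stimulating factors, Csf2rb, the shared beta chain, stood at 386 CPM in dHep_IR, 241 in FL_IR and 101 in FL_control. The checkpoint ligand gene Cd274 stood at 155, 32.6 and 44.8 CPM in dHep_IR, FL_IR and FL_control. Of 14 proliferation genes 11, and of 18 p53 target genes 6, were over 2-fold higher in dHep_IR, but none of these was over 2 times its level in both T and endothelial cells. Summed over the proliferation list, T cells of dHep_IR had 2286 CPM and Treml4/Ace-positive cells 724 CPM. Summed over the p53 list, endothelial cells had 5299 CPM and Treml4/Ace-positive cells 2156 CPM. With such levels in the reference cells, the 2 times limit cannot tell whether Treml4/Ace-positive cells made these transcripts. None of 16 nuclear OXPHOS genes passed 2-fold, and of 13 glycolysis genes 1 was lower. Gsdmd itself stood at 72.9 CPM in dHep_IR (254 UMIs), 6.52 in FL_IR (1 UMI) and 63.5 in FL_control (44 UMIs), a ratio of 1.15 between dHep_IR and FL_control (0.831 to 1.62). The low FL_IR level was not confined to these cells. A Gsdmd UMI was found in 50.9, 8.56 and 53.2 percent of classical monocytes of dHep_IR, FL_IR and FL_control. The shares were 16.5, 3.19 and 32.3 percent in Kupffer cells and 14.7, 2.27 and 21.9 percent in T cells. In endothelial cells they were 14.5, 5.44 and 19.8 percent. Why Gsdmd was lowest in FL_IR, whose label names no deletion, was not tested.

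The cells of dHep_IR were not alike among themselves. In the cleaned set, 84 cells had 5 or more UMIs of C1qa, C1qb and C1qc together and 103 had fewer, at median depths of 13324.5 and 12848 UMIs. The cells with more C1q had 2706 CPM of H2-Aa, against 434 CPM in those with fewer, and 3493 CPM of Chil3, against 9382 CPM. They also had less Saa3, 4487 against 9879 CPM. Lcn2 stood at 304 against 988 CPM, and the source of its RNA was not tested. Genes of the nonclassical side were divided. Cx3cr1 stood at 23.2 CPM (28 UMIs) in the cells with more C1q, against 8.30 CPM (11 UMIs) in those with fewer, and Nr1h3, which encodes a liver X receptor, at 62.9 against 32.4 CPM, while Adgre4 stood at 148 against 134 CPM and Spn at 61.3 against 54.3 CPM.

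Across the 187 cells of the cleaned set, the C1q sum and the sum of H2-Aa, H2-Ab1 and H2-Eb1 had a Spearman rho of 0.54, the C1q sum and Chil3 one of -0.49, and Saa3 and Chil3 one of 0.49. The cells share a library and differ in depth, so these are descriptions of 1 library. Cells with C1q and class II transcripts were thus mostly poor in Chil3, while 78 of the 187 cells had fewer than 5 UMIs of both the C1q and the class II sum.

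**Figure D5:**
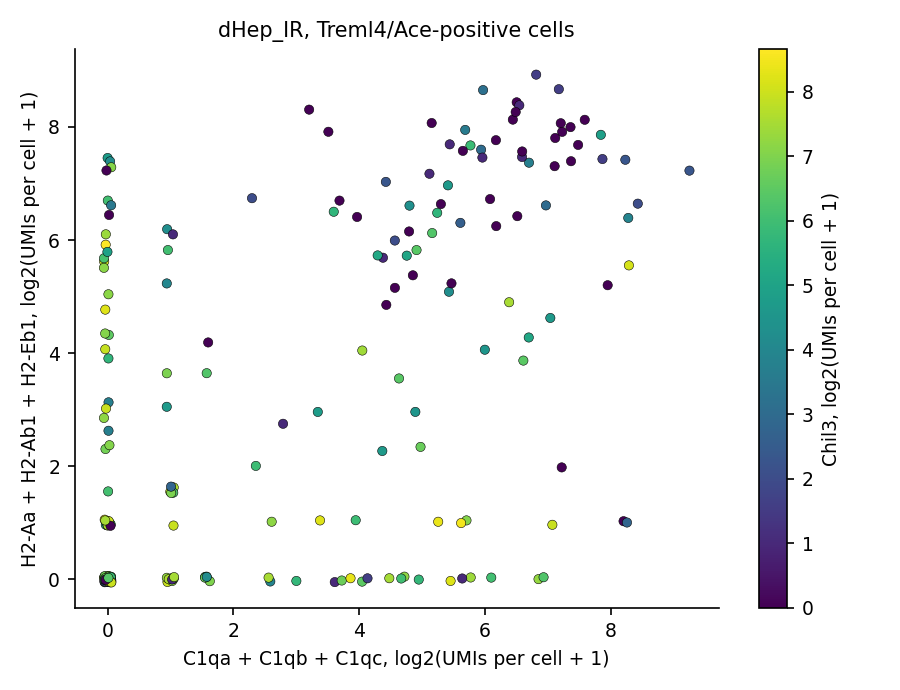
Each point is 1 of the 227 Treml4/Ace-positive cells of dHep_IR, with summed C1qa, C1qb and C1qc UMIs on the x axis and summed H2-Aa, H2-Ab1 and H2-Eb1 UMIs on the y axis, both as log2 of the count plus 1, and Chil3 as colour on the same scale. Cells high in both sums (upper right) are mostly dark, that is low in Chil3, and Spearman's rho between the 2 sums is 0.54.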

How the data were processed

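Single liver cells were profiled with 10x Genomics 3' chemistry in 3 libraries, 1 per group. The authors deposited unnormalized UMI counts for each gene in each barcode. The submitters' processing notes name mm10, Cell Ranger 6.1.1, CASAVA 1.8 and Seurat 4.0.3, and which annotation was used is not stated in the sources used here. Symbols used more than once were left out, 3 listed symbols were not used here, and no column of another sample was present (0). The members and the gene lists were chosen with earlier results of these data known.

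Cells were filtered and chosen as the report states, with no doublet step and no removal of free RNA. The T gate needed a Cd3e UMI and no Cd79a or Csf1r, the B gate at least 2 Cd79a UMIs and no Cd3e or Csf1r, and the endothelial gate at least 3 UMIs over Stab2, Ptprb and Kdr and no Csf1r. The Kupffer gate also needed Csf1r and no Treml4, Ace, Cd79a or Cd3e. UMI counts were summed per library and gate and scaled to CPM, log2 ratios had a prior count of 0.5, and a gene was called past 2-fold. Ratios needed at least 20 cells in each library and, for gene counts, at least 20 UMIs over both. Intervals are exact (Poisson for sums, Clopper-Pearson for shares, conditional binomial for ratios), and a count of 0 was given a floor of 3 counts. Scrublet (scanpy 1.11.5, expected rate 6 percent) called 291, 235 and 160 kept cells as doublets in dHep_IR, FL_IR and FL_control, 17, 2 and 1 of them Treml4/Ace-positive. edgeR 4.0.16 gave TMM factors for 1 alternative, whose log2 values were -0.10 in dHep_IR and 0.10 in FL_control.

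Named genes were Gsdmd, the 7 genes of the rule, Cx3cr1 and Nr4a1, and the 8 highest and 8 lowest by the interval bound nearest to 1 among genes with at least 50 UMIs and a UMI in 10 percent of cells of 1 library. They leave out unnamed and sex-linked genes, those of mitochondria, ribosomes, haemoglobin and antigen receptors, and markers of other cells. Up to 4 genes per list by the same bound and the 8 with the highest ratio against classical and Kupffer cells were added. Further genes (Hp, S100a8, F13a1, Ly6c2, Chil3 beside classical cells, Itgal, Adgre4, H2-Aa, Cxcl10 and Tnf among them), and the letters TTNNGCAA, were chosen after their values were seen. The calculation was tested on simulated counts.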

Additional observations from a re-analysis of the deposited data

Results flagged for a closer look

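In 8 genes the log2 ratio of dHep_IR over FL_control went past 2-fold one way in Treml4/Ace-positive cells and past 2-fold the other way in classical monocytes of the same libraries. The difference between the 2 kinds of cells was not tested, and each library is 1 sample. Of 8731 genes in Treml4/Ace-positive cells, 913 were over 2-fold higher and 1044 lower, and FL_control had only 47 classical monocytes. The share of all genes that went opposite ways is not given here, so the count of 8 is not read as a result. Of the 8, 5 were higher in Treml4/Ace-positive cells: Gbp5 at 1.66 (classical -1.85), Ifi47 at 1.16 (classical -1.74) and Gbp2 at 1.02 (classical -1.60), all interferon-inducible GTPases, and Tnf at 1.85 (classical -1.03) and Il1rn, the interleukin-1 receptor antagonist, at 1.38 (classical -1.05). The other 3 were lower: Pglyrp1, a peptidoglycan recognition protein, at -1.13 (classical 3.10), Cd9, a tetraspanin, at -1.16 (classical 2.39), and Havcr2 at -1.39 (classical 1.15). Ifi47 was at 77.8 CPM in Treml4/Ace-positive cells of dHep_IR and 85.9 CPM in its T cells, and Pglyrp1 at 115 CPM and 276 CPM, so these levels are not above those of other cells. In the cleaned set Havcr2 had a log2 ratio of 0.36.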

How the results depend on the processing

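No paired analysis was possible because each group has 1 library, and for the same reason no replicate could be left out. The share of Treml4/Ace-positive cells was lower in FL_IR than in FL_control and higher in dHep_IR than in FL_IR under every alternative that left a cell in FL_IR. As log2 ratios, shares of kept cells in FL_IR against FL_control were -4.06 with at least 3 UMIs of Treml4 and Ace, -6.06 without cells holding 5 or more S100a8 and S100a9 UMIs and -4.32 with both genes, and shares of monocytes were -5.26, -2.02 and -5.67. In dHep_IR against FL_IR the shares of kept cells were 5.63, 4.89 and 5.52, and those of monocytes 4.53 with at least 3 UMIs and 4.59 with both genes. In dHep_IR against FL_control the share of kept cells was -1.17 under the S100 filter and 0.21 after thinning, and that of monocytes 0.37, -0.036 and, with both genes, -1.08. Thinning left no cell in FL_IR and 33 and 25 cells in dHep_IR and FL_control, and the S100 filter 33 and 65.

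Genes past 2-fold higher in dHep_IR numbered 391 under the S100 filter, 587 after thinning, 404 with at least 100 UMIs and 3176 with no minimum, and genes lower 528, 346 and 2767 under the last 3. The median of MHC class II was -0.94 with at least 3 UMIs, -0.62 without endothelial cells, -0.61 as a mean of cells, -0.87 without the 5 percent deepest cells, 1.34 after thinning, 1.24 without Xcr1 and Clec9a cells, 1.16 in the cleaned set and 1.31 with both genes. H2-Ab1 followed at 1.37, 1.40, 1.36 and 1.55 in the last 4, and Ciita stood at 0.44, 0.66 and 0.042 in the last 3. The interferon median was 0.43 under the S100 filter and 1.22 after thinning, and the classical median 0.11 in the cleaned set. Cxcl9 turned to 2.08 with at least 3 UMIs, 5.01 without endothelial cells, 5.74 in the cleaned set and 4.55 with both genes. Thinning turned Bst2 to 0.35 and Havcr2 to 0.15, and the cleaned set turned Havcr2 to 0.36. Medians of dendritic markers were 0.95 in the cleaned set and 0.000672 with both genes, and of neutrophil markers -0.78 without doublets and -1.10 without the deepest cells. TMM moved the median of all genes to 0.13. The causes of these changes were not tested. The median of the nonclassical list stayed between -1.44 and -0.76 and that of cytokines between 0.86 and 1.85 under all 17 alternatives. The versions with both genes, without Xcr1 and Clec9a cells, without the deepest cells, without shared barcodes and the cleaned set were chosen after seeing the data.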
